A study of Homo sapiens with 16 samples.

Results

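The intestinal lineage transcription factors CDX1, CDX2, HNF4A, KLF4, KLF5, ATOH1 and GATA6 were followed across 6 lines of the human colorectal adenocarcinoma cell line SW480. They were taken by their GENCODE symbols and not by a cut on their values, but with earlier results of these data known. They are 7 of the 66023 genes in the count table. All 7 were found there, 6 had a count above 0 in at least 1 of the 16 samples, and 5 passed the filter on low counts when all samples were fitted together. Levels are given in RPM, the count of a gene per 1000000 counts of its sample.

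RNA-seq was performed on lines in which the LIM domain protein Ajuba was lowered or raised, to learn what its loss or gain changes in colon cancer cells. Parental SW480 cells (n = 2) carried no construct. All other lines were made by transduction with lentivirus. The shRNA lines were shScrambled (n = 2), with a non-targeting shRNA, shAjuba1 (n = 3), with an shRNA against the coding part of the Ajuba mRNA, and shAjuba2 (n = 3), with one against a non-coding part. Ajuba OE cells (n = 3) carried Ajuba under a CMV promoter, and Control cells (n = 3) the same construct with the Ajuba sequence cut out. Stable lines were selected with puromycin at 1.5 µg/mL, and cells were between passages 10 and 18. The labels name 1 line per construct, so that a difference between constructs cannot be told apart from the history of a line. In such bulk samples, fewer cells that express a gene and less RNA per cell cannot be told apart either.

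CDX1 and CDX2 are caudal-type homeobox factors that set and keep intestinal identity, and HNF4A is a nuclear receptor that works with them on enterocyte genes. KLF4 is a zinc finger factor of the differentiated, non-dividing cells of the colon surface, whereas its relative KLF5 is found mainly in dividing crypt cells. ATOH1 is the basic helix-loop-helix factor that commits cells to the secretory lineages, and GATA6 is a zinc finger factor of endoderm and of intestinal crypts.

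The samples held between 30132396 and 69684675 counts. AJUBA was at 525.9 ± 56.1 RPM (SD, n = 3) in Ajuba OE against 93.2 ± 6.3 (n = 3) in Control, at 50.1 ± 3.1 (n = 3) in shAjuba1 and 62.0 ± 5.9 (n = 3) in shAjuba2 against 82.5 ± 1.3 (n = 2) in shScrambled, and at 90.2 ± 2.0 (n = 2) in Parental. These levels followed the labels, although the fall in shAjuba2 did not pass the test (log2 fold change -0.46 ± 0.13 SE, edgeR adjusted p = 0.0773). Replicate 2 of shAjuba2, Control and Ajuba OE differed more from its partners than those did from each other, by 6.32 to 14.3 times counting noise against 4.39 to 5.18 times. In shAjuba1, replicate 3 differed more from its partners, by 5.13 and 5.89 times against 1.87 times between replicates 1 and 2. Of the colon epithelial markers, KRT8, KRT18, KRT19, EPCAM and CLDN4 had means over all samples of 104.9 RPM or more, whereas the intestinal surface genes CDH17, LGALS4 and GPA33 were at 0.796, 0.530 and 0.339 RPM. Of 16 markers of leukocytes, endothelium, fibroblasts, muscle, glia and liver, 11 had a mean over all samples below 1 RPM, and CDH5 and DCN had at most 1 count in a sample. COL1A1 was the highest of these markers with a mean of 14.0 RPM. The summed level of the 16 markers ranged from 19.1 to 22.4 RPM in Ajuba OE, from 34.4 to 47.6 in shAjuba2 and from 25.8 to 35.9 in the other 4 lines, and its part in the results below was not tested.

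CDX2 and KLF4 moved in opposite directions over the 6 lines and HNF4A had its own order, so the 250 bases before their RefSeq starts are shown. They were read from RefSeq promoter windows on GRCh38.p14, which were found for 6 of the 7 factors (8 windows, none for CDX1). Capitals mark matches on either strand to 7 short motifs. These were the core TTTATG bound by caudal homeobox factors, the letters GATAAG bound by the zinc finger family of GATA6, and the box GGGCGGG bound by KLF and SP factors. The others were CAAAGTC for the nuclear receptor family of HNF4A, GGAATG for the TEAD factors that partner YAP, CTTTGAT for TCF and LEF factors of the Wnt pathway and the E-box CAGCTG of basic helix-loop-helix factors. No motif of this list lies within another, and no matches shown overlap. The CDX2 window is chr13:27969316-27969565 on the minus strand, the KLF4 window chr9:107489770-107490019 on the minus strand, and the 2 HNF4A windows are chr20:44355449-44355698 and chr20:44400989-44401238 on the plus strand.
CDX2: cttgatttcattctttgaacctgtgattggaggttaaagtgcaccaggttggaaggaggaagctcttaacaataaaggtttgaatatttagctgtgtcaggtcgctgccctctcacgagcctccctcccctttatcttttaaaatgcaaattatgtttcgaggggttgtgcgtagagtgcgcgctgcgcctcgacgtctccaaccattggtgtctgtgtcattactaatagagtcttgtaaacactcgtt
KLF4: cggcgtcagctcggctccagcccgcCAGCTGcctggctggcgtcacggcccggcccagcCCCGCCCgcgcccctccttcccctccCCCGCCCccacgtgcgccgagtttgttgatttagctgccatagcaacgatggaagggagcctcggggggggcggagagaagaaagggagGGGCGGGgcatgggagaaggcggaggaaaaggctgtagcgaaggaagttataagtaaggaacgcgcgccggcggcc
HNF4A start 1: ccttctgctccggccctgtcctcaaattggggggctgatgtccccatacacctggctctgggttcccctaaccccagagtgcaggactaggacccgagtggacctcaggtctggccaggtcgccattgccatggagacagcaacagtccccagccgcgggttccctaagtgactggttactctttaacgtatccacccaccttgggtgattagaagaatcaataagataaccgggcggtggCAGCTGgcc
HNF4A start 2: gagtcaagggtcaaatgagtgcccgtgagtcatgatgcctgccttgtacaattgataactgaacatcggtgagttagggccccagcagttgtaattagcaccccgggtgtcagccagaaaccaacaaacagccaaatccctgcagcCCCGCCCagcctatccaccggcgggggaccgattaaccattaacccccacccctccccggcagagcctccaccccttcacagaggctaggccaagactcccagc
The KLF4 window held 3 GC boxes, starting 191, 165 and 76 bases before the RefSeq start used for the window, and 1 E-box. GENCODE gives KLF4 a start further upstream, so that this window lies within the gene as annotated there. The upstream HNF4A window held 1 E-box and the downstream one 1 GC box, whereas the CDX2 window held none of the 7 motifs. Of 35116 promoter windows of 300 bases in the reference, 33.1% held the KLF and SP box (here GC box), 17.9% the E-box, 14.0% the TEAD motif, 10.6% the CDX motif, 6.36% the GATA motif, 3.37% the HNF4 motif and 2.62% the TCF motif. These matches describe the letters only.

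CDX2 (ENSG00000165556, chr13:27960918-27969315) separated the lines into 3 levels. It was highest in Ajuba OE, at 26.8, 23.8 and 22.2 RPM in replicates 1, 2 and 3. Parental samples had 16.9 and 19.2 RPM and Control samples 15.5, 15.5 and 17.8 RPM, and these 2 lines overlapped. The lowest levels were in the 3 lines with an shRNA. CDX2 was at 10.2 and 9.56 RPM in shScrambled, at 8.29, 7.40 and 9.88 RPM in shAjuba1 and at 9.98, 7.68 and 10.5 RPM in shAjuba2, with all 3 ranges overlapping. No Parental, Control or Ajuba OE sample was as low as any sample of the shRNA lines. Between the highest and lowest line the fitted difference was 3.02-fold, and the 6 lines differed (edgeR F-test, adjusted p = 4.05e-07).

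KLF4 (ENSG00000136826, chr9:107484852-107490482) ran the other way. Its levels were highest in the Ajuba KD lines, at 19.2, 16.9 and 19.96 RPM in shAjuba1 and at 18.3, 17.2 and 19.1 RPM in shAjuba2. In between were shScrambled with 12.9 and 13.5 RPM, Control with 10.7, 13.8 and 12.7 RPM and Parental with 10.6 and 11.9 RPM, of which each neighbouring pair overlapped. Ajuba OE was lowest, at 9.87, 9.13 and 7.54 RPM, below all samples of the other 5 lines. The fitted difference between the highest and lowest line was 1.99-fold (edgeR F-test over the 6 lines, adjusted p = 4.48e-05). KLF4 shares 357 exon bases with an antisense lncRNA gene of GENCODE, ENSG00000289987, for which no count was used here.

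HNF4A (ENSG00000101076, chr20:44355699-44432845) was highest in shScrambled, at 39.9 and 39.5 RPM. Parental had 29.9 and 30.7 RPM, shAjuba2 31.0, 28.3 and 28.1 RPM, and shAjuba1 25.2, 26.0 and 31.5 RPM. These 3 lines overlapped, and all their samples lay below shScrambled. Control with 24.3, 23.3 and 24.9 RPM and Ajuba OE with 24.5, 24.1 and 23.7 RPM overlapped each other at the lowest level. HNF4A spanned 1.63-fold between lines (edgeR F-test, adjusted p = 3.75e-04).

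KLF5 (ENSG00000102554, chr13:73054976-73077541) was the most abundant of the 7 factors and varied least. Per kilobase of exon, its mean over all samples was 34.8 RPM, against 4.11 for CDX2, 3.81 for KLF4, 2.80 for HNF4A and 0.0919 for GATA6. KLF5 was at 145.3 and 141.0 RPM in Parental, 147.8, 132.6 and 146.4 in Control, and 152.6, 110.9 and 133.3 in Ajuba OE. It was at 133.0, 108.1 and 140.0 RPM in shAjuba2, 112.4, 108.6 and 113.8 in shAjuba1 and 108.3 and 114.8 in shScrambled. Every pair of neighbours in the order of the line means overlapped, and replicate 2 was the lowest sample in each of shAjuba2, Control and Ajuba OE. The highest line exceeded the lowest by 1.31-fold in the fit (edgeR F-test, adjusted p = 0.0274), a call that was lost when any of 10 single samples was left out (adjusted p from 0.0560 to 0.0791). These were both Parental, both shScrambled and all 3 shAjuba1 samples, Control replicates 1 and 3 and Ajuba OE replicate 3. Without replicate 2 of shAjuba2, Control and Ajuba OE, the adjusted p was 1.79e-04.

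GATA6 (ENSG00000141448, chr18:22169589-22202528) was present at 5 to 24 counts per sample. Its level was 0.516 ± 0.071 RPM (SD, n = 3) in shAjuba1, 0.436 ± 0.056 (n = 3) in shAjuba2, 0.417 ± 0.221 (n = 2) in Parental and 0.401 ± 0.024 (n = 2) in shScrambled. It was lower in Control, at 0.199 ± 0.077 RPM (n = 3), and in Ajuba OE, at 0.167 ± 0.035 RPM (n = 3). All samples of the 3 shRNA lines lay above all samples of Control and Ajuba OE, while one Parental sample (0.261 RPM) fell within the Control range. The 6 lines differed (edgeR F-test, adjusted p = 0.00912). GATA6 shares 94 exon bases with the antisense gene GATA6-AS1, which had 0 to 10 counts, and 321 with the antisense gene ENSG00000266283, which had 0 to 1. The strand setting of the counting is not given in the sources used here, so reads from these stretches may belong to either strand.

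CDX1 (ENSG00000113722, chr5:150166778-150184558) was near the limit of detection. It had 17 counts in all, spread over 9 of the 16 samples, and at most 4 counts in one sample. ATOH1 (ENSG00000172238, chr4:93828753-93830964) had 0 counts in all 16 samples, which allows a level of up to 0.00417 RPM over all of them and of up to 0.0431 to 0.0996 RPM in a single sample. These limits rest on 3 counts and cover counting error only. No comparison of CDX1 or ATOH1 could be made at this depth.

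**Figure D1:**
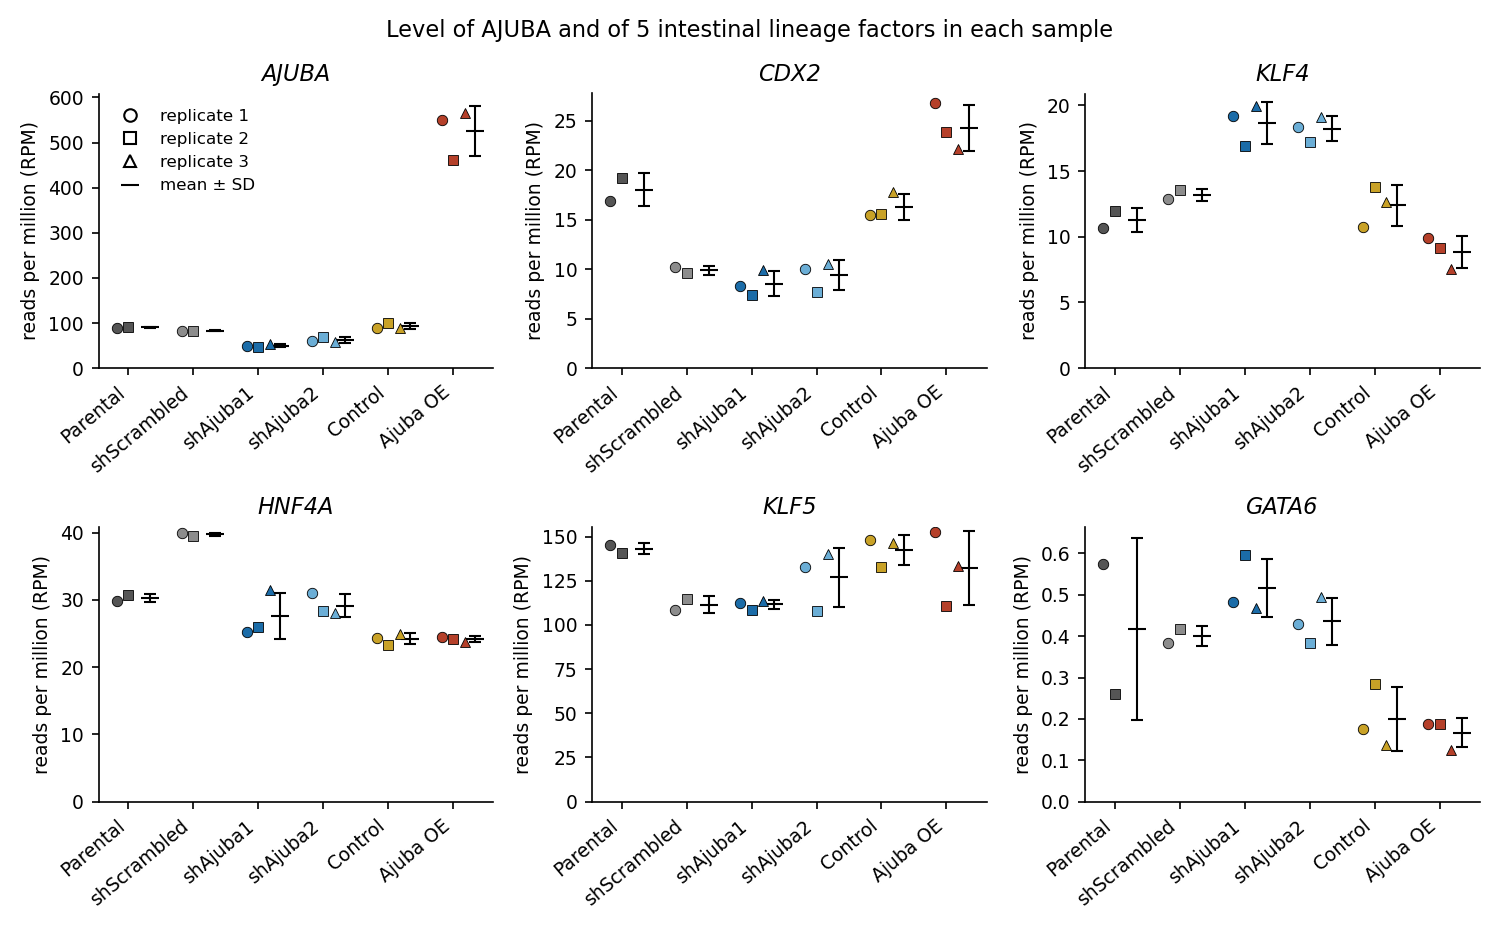
Level of AJUBA and of the 5 measurable lineage factors in RPM (vertical axes, each starting at 0) in the 16 samples of the 6 lines, with symbols for the replicate and a bar for the mean ± SD. CDX2 is highest in Ajuba OE (22.2 to 26.8 RPM) and low in shScrambled and both KD lines (7.40 to 10.5 RPM), KLF4 is highest in the KD lines (16.9 to 19.96 RPM), and HNF4A stands out in shScrambled (39.5 and 39.9 RPM).

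Loss of Ajuba was compared with shScrambled, the control line of both KD lines, so that these comparisons share 2 samples. KLF4 rose in shAjuba1 by 0.48 ± 0.11 on the log2 scale (SE, edgeR adjusted p = 0.00302), which is 1.40-fold. In shAjuba2 its log2 difference was 0.42 ± 0.13, which did not pass the test (adjusted p = 0.0870), although all 3 samples were above both shScrambled samples. Without replicate 2 of shAjuba2 it was 0.44 with an adjusted p of 0.0116. It was not called without shAjuba2 replicate 1 (0.44, edgeR adjusted p = 0.178) or replicate 3 (0.40, adjusted p = 0.118). Without shScrambled replicate 1 or 2 the KLF4 difference was 0.39 or 0.45. HNF4A fell by 0.54 on the log2 scale (SE 0.10, adjusted p = 0.00112) in shAjuba1 and fell by 0.49 (SE 0.11, adjusted p = 0.0409) in shAjuba2. The second call was lost when shScrambled replicate 1 (adjusted p = 0.372), shScrambled replicate 2 (0.326), shAjuba2 replicate 1 (0.121) or shAjuba2 replicate 3 (0.0768) was left out. CDX2 differed by -0.23 ± 0.13 in shAjuba1 (adjusted p = 0.183) and by -0.12 ± 0.16 in shAjuba2 (adjusted p = 0.678), with overlapping samples in both. Leaving out shAjuba1 replicate 3, its highest sample, gave -0.32 with an adjusted p of 0.0124. CDX2 was not called without shAjuba1 replicate 1 (-0.20, edgeR adjusted p = 0.346) or replicate 2 (-0.14, adjusted p = 0.453). Without shScrambled replicate 1 or 2 the difference was -0.16 or -0.28. KLF5 differed by -0.01 ± 0.08 and 0.14 ± 0.14 and GATA6 by 0.32 ± 0.31 and 0.07 ± 0.30 in shAjuba1 and shAjuba2, and none of these passed the test. So 2 of 5 tested factors were called in shAjuba1 and 1 of 5 in shAjuba2, against 38.4% and 7.63% of all genes tested in these comparisons. The median log2 difference of the tested factors was -0.01 and 0.07, beside -0.01 for all genes in each comparison. Between the KD lines themselves, 0 of the 5 tested factors were called by edgeR, 0 had an unadjusted p under 0.05 and 0 were called by DESeq2, where 19.6% of all genes tested by edgeR were called.

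Gain of Ajuba was compared with Control. CDX2 rose by 0.64 ± 0.11 on the log2 scale (SE, edgeR adjusted p = 0.0165), or 1.56-fold, and all 3 Ajuba OE samples were above all 3 Control samples. The call was lost without Control replicate 1 (0.61, adjusted p = 0.0684), without Control replicate 3 (0.71, adjusted p = 0.0559) or without Ajuba OE replicate 1 (0.59, adjusted p = 0.0752), but not without replicate 2 of both lines (0.60, adjusted p = 0.0185). KLF4 was lower in all 3 Ajuba OE samples than in any Control sample, with a log2 difference of -0.42 ± 0.14 that did not pass the test (adjusted p = 0.155). HNF4A differed by 0.06 ± 0.09 (adjusted p = 0.785) and KLF5 by -0.05 ± 0.12 (adjusted p = 0.885), both with overlapping samples. GATA6 had too few counts to be tested here. Thus 1 of 4 tested factors was called, against 5.43% of all genes tested. The median log2 difference of the 4 was 0.01, and that of all genes -0.01.

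The control lines were then compared with each other, since all values above depend on them. CDX2 fell by 0.88 on the log2 scale (SE 0.11, edgeR adjusted p = 1.31e-06) from Parental to shScrambled, a 1.84-fold difference that was called in each of the 11 alternatives run. HNF4A rose by 0.38 ± 0.08 (adjusted p = 8.73e-04) and KLF5 fell by 0.36 (SE 0.08, adjusted p = 7.19e-04) in the same comparison, whereas KLF4 differed by 0.22 ± 0.11 (adjusted p = 0.134). That makes 3 of 5 tested factors, in a comparison in which 30.7% of all genes tested were called. Control against Parental gave 0 of 5 by edgeR, with 1 at an unadjusted p under 0.05 and 0 by DESeq2, beside 0.370% of all genes called by edgeR. Control against shScrambled gave 2 of 5, beside 5.80% of all genes. CDX2 was higher in Control by 0.73 ± 0.12 (adjusted p = 0.0181) and HNF4A lower by a log2 difference of -0.71 ± 0.10 (adjusted p = 0.00988). Both calls were lost without shScrambled replicate 1, shScrambled replicate 2 or Control replicate 3 (adjusted p from 0.106 to 0.257 for CDX2 and from 0.0835 to 0.159 for HNF4A).

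With Parental in place of shScrambled, the picture of the KD lines changed for CDX2 and HNF4A. CDX2 was then lower in shAjuba1 by a log2 difference of -1.11 (edgeR adjusted p = 5.09e-05) and in shAjuba2 by -1.003 (adjusted p = 0.0203). HNF4A was no longer called, at -0.17 (adjusted p = 0.227) and -0.12 (adjusted p = 0.477). KLF4 was called in both, at 0.70 (adjusted p = 5.58e-04) and 0.63 (adjusted p = 0.0358), and so kept its direction against either control line. KLF5 was at -0.39 (adjusted p = 0.00129) in shAjuba1 and at -0.23 (adjusted p = 0.274) in shAjuba2. Against Parental, CDX2 in Ajuba OE was higher by 0.48, which did not pass the test (adjusted p = 0.0631). Among the 6 lines all 5 tested factors were called by the F-test, as were 45.7% of all genes tested.

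**Figure D2:**
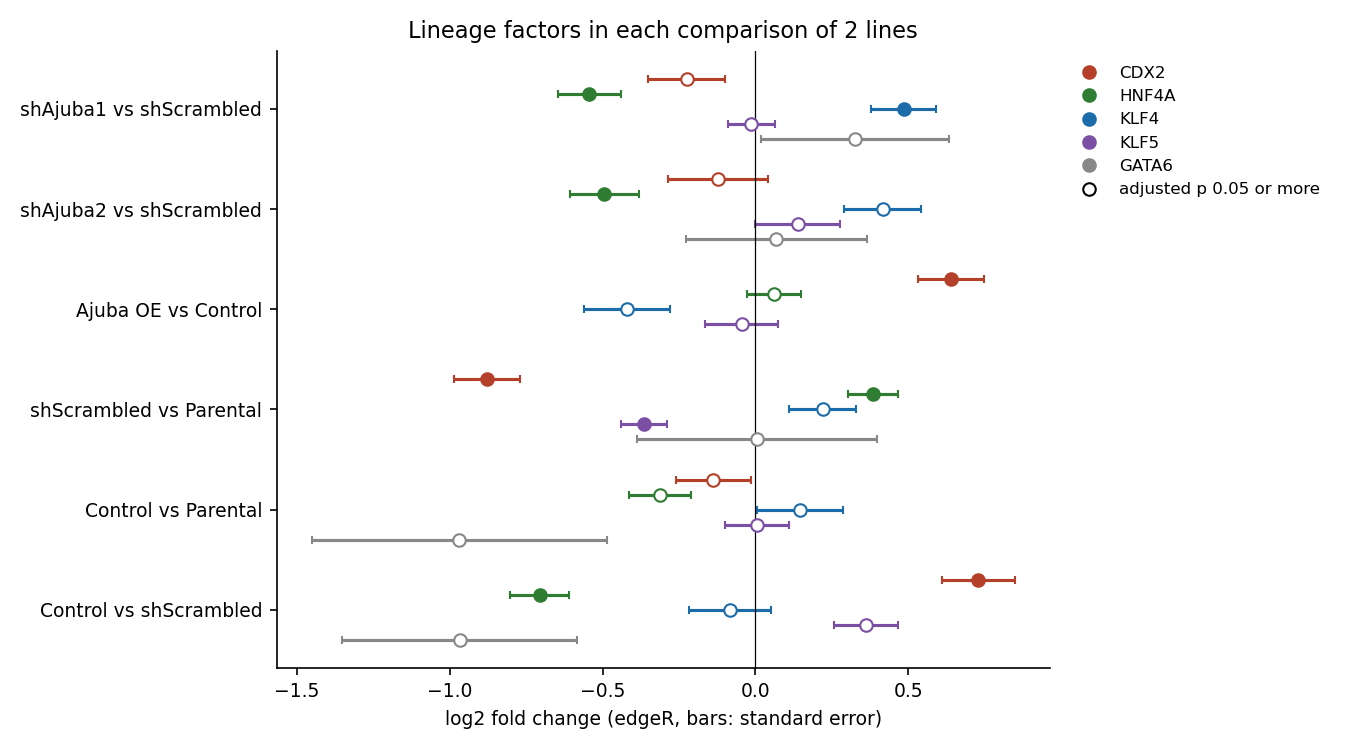
Fitted log2 fold change (horizontal axis, bars show the standard error) of CDX2, HNF4A, KLF4, KLF5 and GATA6 in 6 comparisons of 2 lines (vertical axis), with filled points for an adjusted p under 0.05. CDX2 is at -0.88 in shScrambled against Parental and at 0.64 in Ajuba OE against Control, and HNF4A is below 0 in both KD lines and above 0 in shScrambled against Parental (0.38).

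The number of CDX2 counts per KLF4 count was taken within each sample, where the total of the sample cancels. This ratio was chosen after the values were seen and is given as a description with no test. It was 2.71, 2.61 and 2.94 in Ajuba OE, 1.58 and 1.61 in Parental and 1.44, 1.13 and 1.40 in Control. In shScrambled it was 0.791 and 0.706, in shAjuba2 0.545, 0.446 and 0.549 and in shAjuba1 0.432, 0.438 and 0.495. The KD lines overlapped each other and lay below shScrambled, and no other neighbouring lines overlapped.

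**Figure D3:**
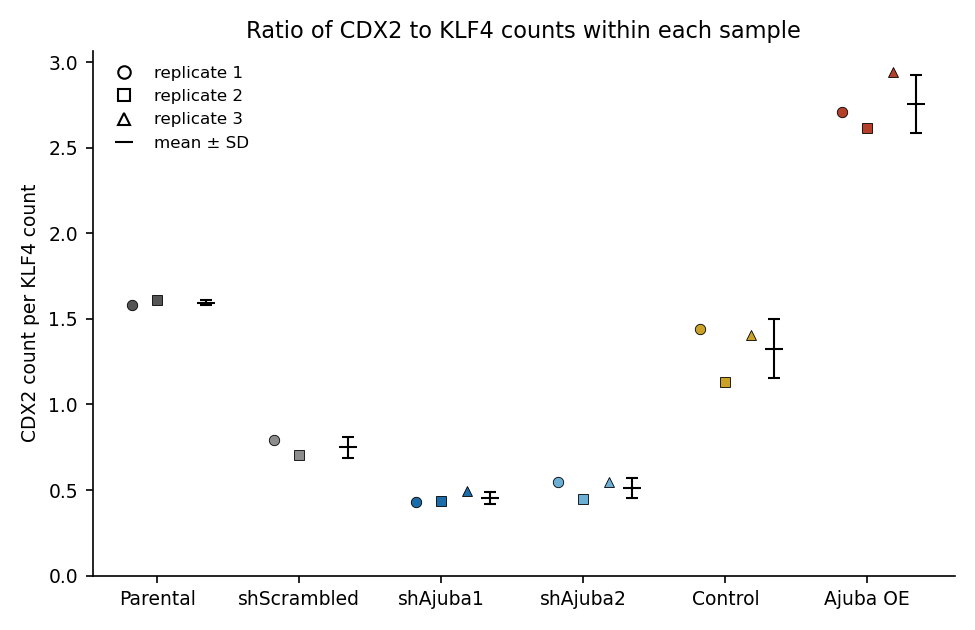
CDX2 counts per KLF4 count (vertical axis, from 0) in each sample of the 6 lines, with symbols for the replicate and bars for the mean ± SD. The mean is 2.75 in Ajuba OE, 1.60 in Parental, 1.33 in Control, 0.749 in shScrambled, 0.513 in shAjuba2 and 0.455 in shAjuba1.

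Over the 16 samples, log2 CPM (RPM with TMM scaling, on a log scale) of CDX2 and KLF4 had a Pearson r of -0.86, CDX2 and KLF5 one of 0.76, and CDX2 and HNF4A one of -0.34. AJUBA had an r of 0.85 with CDX2, -0.83 with KLF4 and -0.27 with HNF4A. These values describe 16 samples that share 6 lines, of which the Ajuba OE samples lie far above the others in AJUBA. Among 19235 genes with a symbol of their own, the patterns most like that of CDX2 were those of EPAS1, the hypoxia-inducible factor HIF-2α (r = 0.98), the adhesion receptor ADGRG1 (0.97) and the membrane protease ST14 (0.97). The most opposed were FBLN7 (-0.96), CCR10 (-0.95) and CNTNAP1 (-0.95). For KLF4 they were CYP26B1, which breaks down retinoic acid (0.98), the laminin receptor BCAM (0.95) and SORBS3 (0.95), and at the other end CCDC6 (-0.96), XPO4 (-0.95) and the amino acid transporter SLC7A1 (-0.95). HNF4A was most like CTDSP2 (0.94), PI4KB (0.91) and NBEA (0.91) and most unlike RBL1 (-0.91), E2F8 (-0.88) and PALB2 (-0.88). KLF5 was most like EGLN1 (0.92), WLS (0.92) and H2BC12 (0.92) and most unlike MOB3C (-0.92), SDCBP2-AS1 (-0.91) and NLRP1 (-0.90). GATA6, whose low counts limit any such value, was most like LINC02709 (0.88), TMEM59L (0.87) and FAM181B (0.87) and most unlike ZNF718 (-0.91), POU2F1-DT (-0.88) and IER3 (-0.86). TMEM59L and FAM181B were themselves sparse, with means over all samples of 0.294 and 0.0909 RPM.

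Other transcription factors of the intestinal lineages were read from a list of 37 genes. In shAjuba1 15 of 25 tested were called, 4 higher and 11 lower (38.4% of all genes were called there), in shAjuba2 8 of 25, 3 higher and 5 lower (7.63%), and in Ajuba OE 9 of 24, 3 higher and 6 lower (5.43%). The count in shAjuba1 was 9 without shScrambled replicate 1. That in shAjuba2 was 2 and 1 without shScrambled replicates 1 and 2, 4 without shAjuba2 replicate 1 and 15 without shAjuba2 replicate 2. In Ajuba OE it was 4 without Control replicate 3 and 5 without Ajuba OE replicate 1 or 3. The median log2 difference of the tested genes was -0.25, 0.05 and 0.03, beside -0.01 for all genes in each comparison. NR5A2, a nuclear receptor that drives crypt cell renewal, and SOX4, an HMG-box factor of progenitor cells, were called in all 3 comparisons, up with loss and down with gain of Ajuba. NR5A2 was at 1.45 ± 0.30 RPM (SD, n = 3) in shAjuba1 and 2.34 ± 0.33 (n = 3) in shAjuba2 against 0.549 ± 0.039 (n = 2) in shScrambled, and at 0.434 ± 0.103 (n = 3) in Ajuba OE against 1.14 ± 0.03 (n = 3) in Control, but at 1.83 ± 0.24 (n = 2) in Parental. SOX4 was at 114.4 ± 0.5 RPM in shAjuba1 and 235.8 ± 6.6 in shAjuba2 against 93.7 ± 9.96 in shScrambled, and at 46.8 ± 4.4 in Ajuba OE against 108.2 ± 9.7 in Control, and at 140.6 ± 4.5 in Parental. Against Parental the direction in shAjuba1 was the reverse, at -0.34 for NR5A2 (edgeR adjusted p = 0.218) and -0.33 for SOX4 (adjusted p = 0.00381). SOX4 was not called in shAjuba1 without shAjuba1 replicate 1 or 2 or shScrambled replicate 2, nor in shAjuba2 without shScrambled replicate 2. NR5A2 was not called in shAjuba2 without either shScrambled sample, nor in Ajuba OE without Ajuba OE replicate 1 or any of the Control samples. Against Parental its log2 difference in shAjuba2 was 0.30, which did not pass the test (adjusted p = 0.329). Between control lines, edgeR called 15 of 25 list factors in shScrambled against Parental, 8 higher and 7 lower, and DESeq2 called 11. Control against Parental gave 1 of 24 and Control against shScrambled 4 of 25 by edgeR. Beside these, 30.7%, 0.370% and 5.80% of all genes were called. Between the KD lines, 17 of 25 were called (5 higher, 12 lower), beside 19.6% of all genes.

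Factors with a strong change in single comparisons followed different orders. ASCL2, a Wnt-responsive factor of crypt stem cells, rose in Ajuba OE from 17.8 ± 1.0 RPM to 43.5 ± 5.8 (log2 difference 1.35 ± 0.12 SE, edgeR adjusted p = 0.00109) and in shAjuba1 by 0.66 ± 0.17 (adjusted p = 0.00835). The second call was lost without either shScrambled sample and turned to -0.65 against Parental (adjusted p = 0.00724). PROX1, a homeobox factor raised by Wnt signalling in colon tumours, rose in Ajuba OE from 33.7 ± 1.5 to 73.5 ± 2.3 RPM (1.19 ± 0.09, adjusted p = 6.05e-04). FOXA1 fell by 1.68 and GFI1, which acts downstream of ATOH1 in secretory cells, fell by 1.64 in shAjuba1, and FOXA3 fell by 1.64 in shAjuba2 (edgeR adjusted p = 7.66e-04, 1.37e-06 and 0.00759). The FOXA levels were low, at 0.352 RPM for FOXA1 in shAjuba1 and 0.458 for FOXA3 in shAjuba2. In shScrambled they were at 1.16 and 1.39 RPM. GFI1 was at 2.57 RPM in shAjuba1 against 7.92 in shScrambled. The FOXA3 call was lost without either shScrambled sample.

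Genes of differentiated cells were sparse. Of 36 absorptive enterocyte and colonocyte genes, 28 had a mean over all samples below 1 RPM, and so had 20 of 29 secretory genes and 11 of 18 gastric and foregut genes. Among the absorptive genes, 5 of 13 tested were called in shAjuba1 (2 higher, 3 lower), 3 of 13 in shAjuba2 (all lower) and 2 of 14 in Ajuba OE (both higher), beside 38.4%, 7.63% and 5.43% of all genes tested. The median log2 differences were -0.10, -0.37 and -0.31, where that of all genes was -0.01 in each comparison. Without shAjuba2 replicate 2 the count in shAjuba2 was 5. VIL1, which codes for the microvillus protein villin, was called in all 3. It was at 21.1 ± 3.8 RPM (SD, n = 3) in shAjuba1 and 11.0 ± 2.0 (n = 3) in shAjuba2 against 55.4 ± 1.4 (n = 2) in shScrambled, at 55.1 ± 3.5 (n = 3) in Ajuba OE against 28.1 ± 1.9 (n = 3) in Control, and at 42.5 ± 3.9 (n = 2) in Parental. All samples of the KD lines lay below those of the other 4 lines, and these calls held when any 1 sample was left out. Against Parental the rise of VIL1 in Ajuba OE did not pass the test (0.43, edgeR adjusted p = 0.0593), while its fall in both KD lines did. USH1C, a brush border scaffold, fell by 1.60 on the log2 scale in shAjuba2 (SE 0.14, edgeR adjusted p = 0.00133) but was not called in shAjuba1. USH1C rose by 0.91 ± 0.12 in Ajuba OE (edgeR adjusted p = 0.00528), a call lost against Parental (0.37, adjusted p = 0.117). In shAjuba1 the brush border genes CDHR2 and PLS1 fell by 1.52 and by 1.48, while MYO1A rose by 1.24 and the sodium-proton exchanger SLC9A3 by 0.62. Between control lines, edgeR called 6 of 13 absorptive genes in shScrambled against Parental, all higher, and DESeq2 called 4. Control against shScrambled gave 4 of 13, all lower. Control against Parental gave 0 of 13 (5 at an unadjusted p under 0.05, 2 by DESeq2). Of all genes tested, 30.7%, 5.80% and 0.370% were called there.

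Of the secretory genes, 13 of 15 tested were called in shAjuba1 (4 higher, 9 lower), 8 of 16 in shAjuba2 (1 higher, 7 lower) and 3 of 15 in Ajuba OE (all higher), beside 38.4%, 7.63% and 5.43% of all genes tested. The median log2 differences were -0.73, -0.77 and -0.10, beside -0.01 for all genes in each comparison. The count in shAjuba1 was 8 without shScrambled replicate 2. That in shAjuba2 was 0 by edgeR without either shScrambled sample and 4 without shAjuba2 replicate 1, where all samples gave 10 at an unadjusted p under 0.05 and 8 by DESeq2. In Ajuba OE it was 2 without any 1 sample. The Paneth cell defensin DEFA5 was called in all 3 comparisons. Its mean was 7.73 RPM in Ajuba OE against 0.238 in Control, and 0.0320 in shAjuba1 and 0.175 in shAjuba2 against 0.987 in shScrambled. Control and shScrambled thus differed in DEFA5 mean themselves, so the size of each change depends on the control line. The Parental mean of DEFA5 lay above both and below that of Ajuba OE. Against Parental the rise in Ajuba OE was therefore smaller, though still called. DEFA6 was at 2.34 RPM in Ajuba OE and 0.0461 in Control (edgeR adjusted p = 9.54e-04). This Control mean lay below the level of 3 counts in a Control sample (0.0612 to 0.0874 RPM). The DEFA5 mean in shAjuba1 likewise lay below that level in its samples (0.0628 to 0.0996 RPM). The size of these changes is therefore imprecise. SCG2, a granin of enteroendocrine granules, was also called in all 3, at 1.05 RPM in Ajuba OE against 0.567 in Control, and at 0.193 in shAjuba1 and 0.301 in shAjuba2 against 1.48 in shScrambled. The SCG2 call in Ajuba OE was lost without any 1 of the 6 samples, and its call in shAjuba2 without either shScrambled sample. Both were also lost against Parental, at 0.70 (edgeR adjusted p = 0.141) and -1.20 (adjusted p = 0.0689). The calls of DEFA5, FCGBP and TFF3 in shAjuba2 were lost without either shScrambled sample, and those of DEFA5 and FCGBP also without shAjuba2 replicate 1. Of the goblet cell genes, FCGBP rose by 2.63 ± 0.28 and 1.95 ± 0.34 on the log2 scale in shAjuba1 and shAjuba2, the second of which was lost against Parental (0.59, edgeR adjusted p = 0.185). The mucin MUC2 rose by 1.44 ± 0.31 in shAjuba1, whereas its mean was 0.283 RPM in shAjuba2 and 0.328 RPM in shScrambled. TFF3 had 0 counts in shAjuba2 and was at least 16.5-fold lower than in shScrambled (0.355 RPM), taking 3 counts over the line as the limit. ATOH1 had 0 counts in all of these samples. Between control lines, edgeR called 8 of 16 secretory genes in shScrambled against Parental (5 higher, 3 lower), and DESeq2 called 1. Control against Parental gave 1 of 15 and Control against shScrambled 3 of 15, all lower. Of all genes tested, 30.7%, 0.370% and 5.80% were called there.

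Of the gastric and foregut genes, 8 of 13 tested were called in shAjuba1 (5 higher, 3 lower), 3 of 13 in shAjuba2 (1 higher, 2 lower) and 0 of 13 in Ajuba OE by edgeR, with 3 at an unadjusted p under 0.05 and 1 called by DESeq2. Of all genes tested, 38.4%, 7.63% and 5.43% were called. The median log2 differences were 0.01, -0.03 and 0.30, beside -0.01 for all genes in each comparison. The count in shAjuba1 was 4 and 2 without shScrambled replicates 1 and 2. That in shAjuba2 was 1 and 0 without these samples, 1 without shAjuba2 replicate 1 or 3 and 5 without shAjuba2 replicate 2. SOX2, the foregut counterpart of CDX2, rose in shAjuba2 from 3.37 to 10.4 RPM (log2 difference 1.58 ± 0.18 SE, edgeR adjusted p = 0.00328). Pepsinogen C, coded by PGC, fell in both KD lines, by 1.04 and by 1.35, and TFF2 fell by 1.07 in shAjuba2. In shAjuba1 the gastric mucin MUC5AC rose by 1.62 ± 0.52 and CTSE by 1.37 ± 0.32, and VSIG1 fell by 2.50, all of them with line means below 1 RPM. Of these, the call of SOX2 was lost without shScrambled replicate 2, that of MUC5AC without either shScrambled sample and that of CTSE without shScrambled replicate 2. The PGC call was lost in shAjuba1 without shScrambled replicate 1 or shAjuba1 replicate 2, and the PGC and TFF2 calls in shAjuba2 without any 1 sample other than shAjuba2 replicate 2. DESeq2 did not call MUC5AC or PGC in shAjuba1. The TFF2 call was lost against Parental as well (-0.85, edgeR adjusted p = 0.0911). Between control lines, edgeR called 6 of 12 gastric and foregut genes in shScrambled against Parental, all higher, and DESeq2 called 4. Control against shScrambled gave 2 of 13, both lower. Control against Parental gave 0 of 13 (3 at an unadjusted p under 0.05, 0 by DESeq2). Of all genes tested, 30.7%, 5.80% and 0.370% were called there.

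**Figure D4:**
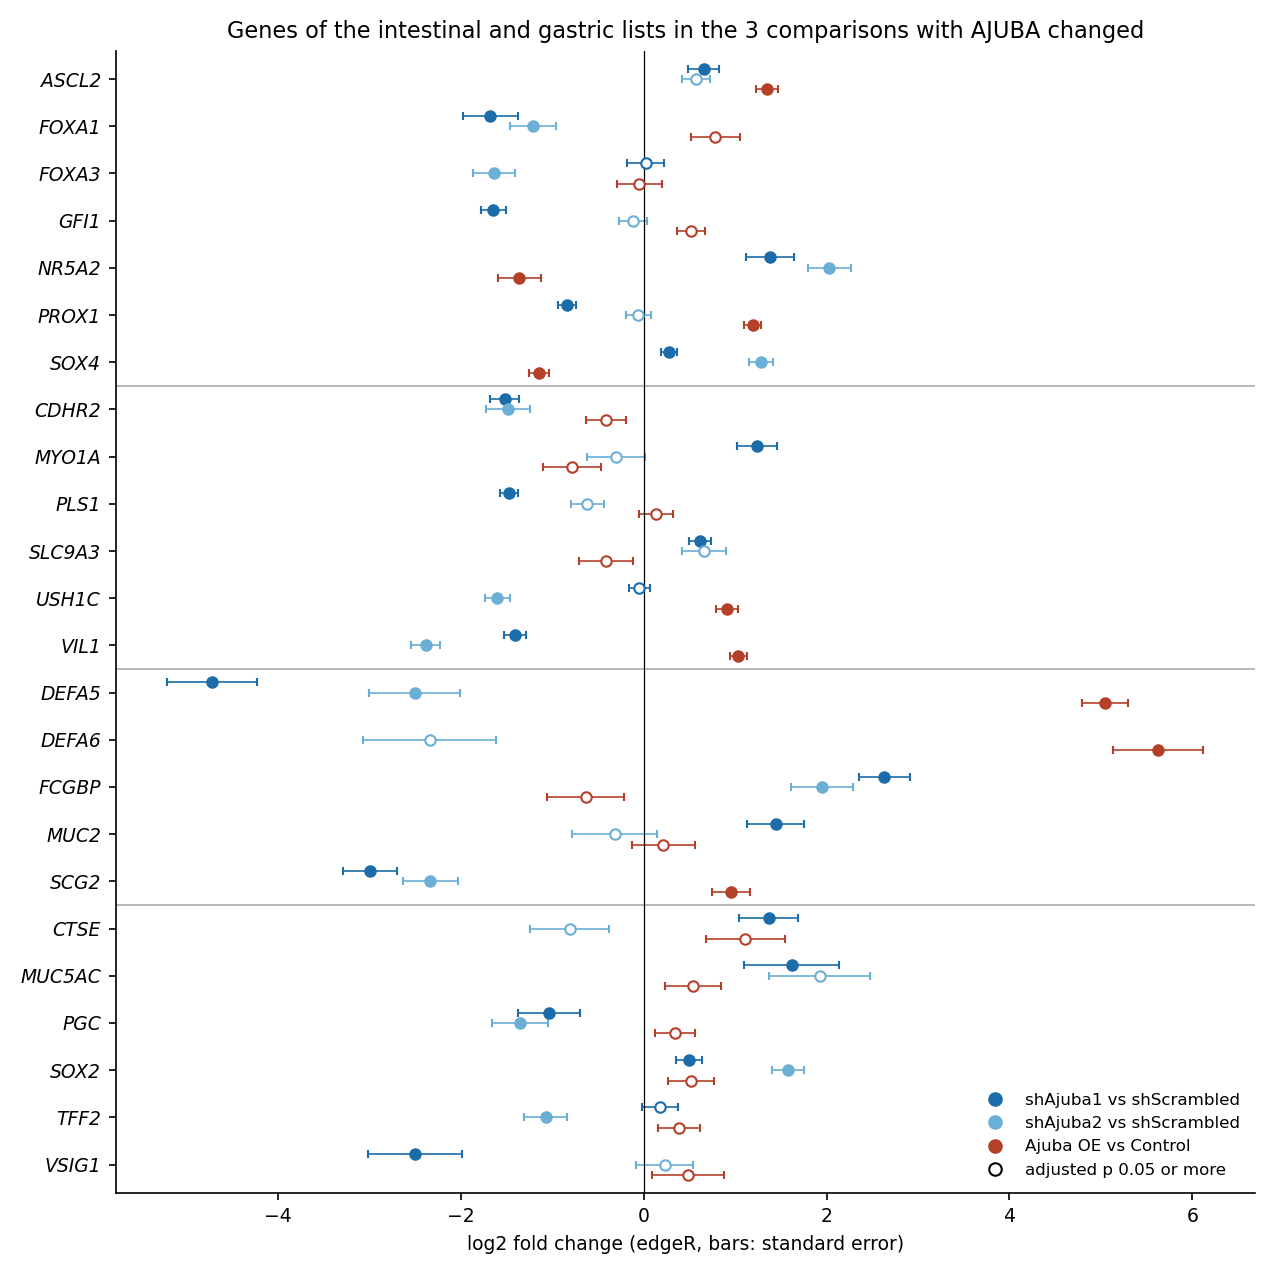
Fitted log2 fold change (horizontal axis, bars show the standard error) of named genes from the lists of lineage factors, absorptive, secretory and gastric genes (from top to bottom, parted by grey lines) in the 3 comparisons with Ajuba lowered or raised, with filled points for an adjusted p under 0.05. VIL1, DEFA5 and SCG2 lie below 0 in both KD lines and above 0 in Ajuba OE, and NR5A2 and SOX4 the reverse. TFF3 is left out because shAjuba2 had 0 counts.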

How the data were processed

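RNA-seq of 16 samples of 6 SW480 lines was analysed. The authors deposited raw counts per gene, made from stranded, paired mRNA libraries with reads of 50 bp that were aligned to hg38 with HISAT2 and counted on exons with featureCounts. Versions, annotation release and strand setting are not given in the sources used here. Of 66023 genes, 56434 were found in GENCODE v44, which holds 99.8% of the counts. Samples were grouped by the line in their labels, and their totals ranged from 30132396 to 69684675 counts. The study calls the replicates technical, so p-values measure only the spread between these samples, and the labels speak of triplicates where Parental and shScrambled have 2 samples.

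Each comparison was fitted on its 2 lines with the quasi-likelihood test of edgeR 4.0.16 in R 4.3.3 (TMM, filterByExpr, two-sided, Benjamini-Hochberg over all genes tested, calls at an adjusted p under 0.05), and the 6 lines with an F-test over 16 samples. The script was tested on simulated data. Replicates differed by 1.87 to 14.3 times counting noise and were all kept. Correlations used log2 CPM with a prior count of 2. Motifs were searched on both strands. Named genes were the 7 factors, AJUBA, the 3 genes most and least like each factor, up to 2 called list genes in each direction with the largest change per list and comparison, list genes called in all 3 comparisons with Ajuba changed, and genes overlapping a factor's exons. Of the genes this rule names, 2 are not reported here, although the counts over their list include them. The members, lists and rules were chosen with earlier results of these data known. Alternatives were DESeq2 1.42.0, other scalings and filters, a replicate block, all samples in 1 fit, Parental as control and leaving out samples. Figures were drawn with matplotlib 3.10.9.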

Additional observations from a re-analysis of the deposited data

How the results depend on the processing

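Of 434 alternatives run for 30 results on single factors, 382 kept the direction and the side of the threshold, 30 lost a call, 10 gained one and 12 changed sign. The cause was not tested for any of them beyond the fewer samples that leaving out brings. The changes of sign of factors concerned values that were not called. KLF5 in shAjuba1 against shScrambled became 0.00057 with library size only and 0.0017 with all 16 samples in the fit, and ranged from -0.036 to 0.020 when 1 sample was left out (0.0020 without shAjuba1 replicate 2). KLF5 in shAjuba2 was -0.23 against Parental. GATA6 in shAjuba2 became -0.030 with the replicate block and ranged from -0.014 (without shAjuba2 replicate 3) to 0.14 when 1 sample was left out. HNF4A in Ajuba OE became -0.0045 with library size only and -0.28 against Parental, and KLF5 there ranged from -0.13 to 0.058 (without Ajuba OE replicate 2) and was 0.0035 without replicate 2 of both lines. KLF4 in Control against shScrambled ranged from -0.18 to 0.0078 (without Control replicate 1). Of the list genes named, ASCL2 (-0.65), NR5A2 (-0.34) and SOX4 (-0.33) in shAjuba1 changed sign against Parental.

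The counts of called genes were 8103 (shAjuba1), 1713 (shAjuba2), 1147 (Ajuba OE), 4232 (shAjuba1 against shAjuba2), 6526 (shScrambled against Parental), 80 (Control against Parental), 1272 (Control against shScrambled) and 10773 (6 lines). Leaving out 1 sample gave, in this order, 4711 to 9695, 182 to 4983, 412 to 988 (1701 without replicate 2 of both lines), 2177 to 5961, 3010 to 5369, 14 to 985, 129 to 3669 and 8991 to 11649. DESeq2 called 1763 genes in Ajuba OE and 567 in Control against Parental. Testing every gene with at least 1 count gave 3210 in shAjuba2, 1947 in Control against Parental and 2661 in Control against shScrambled, and at least 10 counts in every sample gave 26 in Control against Parental. With all 16 samples in the fit, the counts were 3672 (shAjuba2), 2386 (Ajuba OE), 1696 (shScrambled against Parental), 530 (Control against Parental) and 2066 (Control against shScrambled), and HNF4A (0.37, adjusted p = 0.0521) and KLF5 (-0.38, adjusted p = 0.0991) in shScrambled against Parental lost their calls.

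Same-numbered samples shared only a number, with deviations from the line means that correlated at -0.05 to 0.50 for Ajuba OE and Control. With the replicate number as a block, the counts were 5377 in shAjuba2, 5140 in Ajuba OE and 318 in Control against Parental, CDX2 in shAjuba1 was called (-0.34, adjusted p = 0.0147) and so was KLF4 in Ajuba OE (-0.42, adjusted p = 0.0182). With library size only, HNF4A in shAjuba2 (-0.45, adjusted p = 0.0628) and KLF5 over the 6 lines (0.36, adjusted p = 0.0721) were not called. With all 16 samples in the fit, KLF4 was called in shAjuba2 (0.42, adjusted p = 0.0388) and in Ajuba OE (-0.40, adjusted p = 0.0403). Leaving out samples for the CDX2 to KLF4 ratio was added after the data were seen and says nothing about its stability, since it cannot move a mean of 2 or 3 samples by 1 SD. Lines with 2 samples limit what could be called, and the counts of GATA6 and CDX1 limit the precision of their levels.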
